A study of Mus musculus with 14 samples.

Results

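Endothelial cells line every blood and lymphatic vessel, and the lung is unusually rich in them. The set described here is 35 mouse genes that mark this lining or govern its growth: pan-endothelial, capillary and lymphatic genes and the receptors of angiogenesis. They were listed by gene name, by a rule that uses no measured value but was set with earlier results of these data known, and all 35 were matched through their Entrez numbers to 1 probe set each among the 21212 probe sets of the array. Their levels were read on 14 arrays of lung tissue from C57BL/6J mice at postnatal day 6 (P6). The first set of 8 arrays compared 4 mice labelled Atxn1L -/-, without Ataxin 1-like, with 4 wild types, and the second set of 6 arrays compared 3 mice labelled Atxn1 -/-, without Ataxin 1, with 3 wild types. Both sets came from crosses of heterozygous parents, so the loss is not restricted to the endothelium. Ataxin 1 and its paralogue both partner with Capicua (Cic), a repressor of transcription, and the comparison asks whether the vascular lining of the newborn lung differs when either one is missing. Each array held RNA of 1 lung sample, 100 ng of total RNA per labelling. The series text names Atxn1 for both sets where the sample labels give Atxn1L for the set of 8, and the labels are followed here. That text speaks of pairs of mice, but the labels do not say which mice were paired or littermates, and p-values measure the spread between these samples. The number of arrays limits the precision.

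Endothelial cells hold together through VE-cadherin, claudin-5 and related adhesion proteins. Vascular endothelial growth factor acts on Kdr to make vessels grow, angiopoietin acts on Tek to make them stable, and bone morphogenetic proteins of the blood act on Acvrl1 and Eng to keep arteries and veins apart. In the lung of a young mouse the alveolar capillaries expand while the alveoli are divided, and they consist of aerocytes, large cells marked by Car4, Ednrb and Apln that face the air spaces, and general capillary cells marked by Gpihbp1, Plvap and Aplnr. Lung tissue mixes all cell types, so fewer endothelial cells and less RNA per endothelial cell cannot be told apart in these data.

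The endothelial genes were not among the dimmest of the array, though no test of detection was made. All 35 lay above the dimmest 25% of probe sets in both sets, a limit at a log2 level of 6.93 in the Atxn1l set and 7.82 in the Atxn1 set. Their mean levels ran from 8.08 to 13.1 in the first set and from 8.30 to 13.4 in the second. The lowest of these lay below the median levels of the arrays, which were 8.44 to 8.53 and 9.21 to 9.24. Their spread between arrays of a group was close to that of all probe sets above this limit. The median SD within groups was 0.0921 against 0.0895 in the Atxn1l set and 0.0798 against 0.0838 in the Atxn1 set. Many of those probe sets were dimmer than the 35 genes, and no comparison at matched brightness was made. Levels are log2 units on a scale set separately for each set of arrays, so a level of one set is not compared with a level of the other.

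The targeted gene was checked first. Atxn1l stood at 6.68, 6.93, 7.05 and 6.79 on the 4 Atxn1l knockout arrays and at 9.59, 9.43, 9.29 and 9.47 on their wild types, a fall by 2.58 on the log2 scale (SE 0.09, limma adjusted p = 1.18e-06). Atxn1 stood at 11.02, 10.99 and 11.04 on the 3 Atxn1 knockout arrays and at 10.92, 11.14 and 10.97 on their wild types, a log2 change of 0.01 (SE 0.07). A probe set that lies outside the deleted part would read the same in both genotypes, so this value does not check the label of the Atxn1 knockouts. Cic had a log2 change of 0.14 (adjusted p = 0.527) in the Atxn1l set and of 0.05 in the other. Over the whole array, 9 of 21212 probe sets passed an adjusted p of 0.05 for the Atxn1l knockouts and 0 did for the Atxn1 knockouts, with 258 at an unadjusted p under 0.05. The count of 9 varied with the arrays used. It was 16 without knockout 1, 25 without wild type 4 and 2 without knockout 4 or without wild type 2. Xist, the transcript of the inactive X chromosome, was at 6.32 to 7.04 on 3 arrays of the Atxn1l set (knockout 1 and wild types 1 and 2) and at 13.1 to 13.3 on the other 5. It was at 6.83 to 6.94 on 3 arrays of the Atxn1 set (knockout 1 and wild types 1 and 2) and at 13.0 to 13.1 on the other 3.

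One array of each set stood apart by genes of white blood cells. The mean log2 level of 14 neutrophil genes was 1.95, 0.60, 0.42 and 0.25 above the wild-type mean on Atxn1l knockouts 1 to 4, and 0.13, 0.40, -0.24 and -0.30 from it on the wild types. All 14 were highest on knockout 1. In the Atxn1 set the third wild type stood 1.22 above the wild-type mean and the other 5 arrays lay between -0.67 and -0.21. Among 13 macrophage genes, 11 were higher on average in the Atxn1l knockouts and 2 of them (4 without knockout 1) rose past the threshold, Chil3 by 1.46 (adjusted p = 0.0210) and Msr1 by 0.69 (adjusted p = 0.0197). Values without knockout 1 of the Atxn1l set and without wild type 3 of the Atxn1 set are given below beside the counts, medians and genes of larger change that they move by over 1.5 times.

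None of the 35 endothelial genes changed in the Atxn1l knockouts at an adjusted p of 0.05 (limma, Benjamini-Hochberg over all 21212 probe sets, of which 0.0424% passed). The smallest adjusted p was 0.390, of Emcn. Before adjustment, p was under 0.05 for 3 genes, or 8.57% of the 35, against 8.5% of all probe sets. Emcn and Calcrl were on the lower side (3.95% of all probe sets) and Nos3 on the higher (4.54%). Log2 changes ran from -0.19 (Emcn) to 0.23 (Vwf), which is at most 1.14-fold lower and 1.17-fold higher. Their median was -0.0223 against 0.00263 for all probe sets, and 22 of 35 (62.9%) were below 0, against 48.7% of all probe sets. The median size of a change was 0.0575 among the endothelial genes and 0.0526 over all probe sets. The 95% intervals of all 35 lay within 0.5 log2 units of 0, and those of 23 lay within 0.25.

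None of the 35 passed in the Atxn1 knockouts either (limma, percentage of all probe sets that passed: 0%), and each had an adjusted p of 0.9999. Before adjustment, no gene of the 35 had a p under 0.05 (0 of 35), against 1.22% of all probe sets. Log2 changes ran from -0.13 (Aplnr) to 0.13 (Car4), with a median of 0.0327 against -0.00377 for all probe sets. The number above 0 was 26 of 35 (74.3%), against 47.3% of all probe sets, and 23 of 35 without wild type 3. Without that array the median was 0.00953, against -0.00951 for all probe sets. The 95% intervals of all 35 again lay within 0.5 log2 units, and those of 26 within 0.25.

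The effects of the knockouts were also compared with each other, as the Atxn1l effect minus the Atxn1 effect in 1 fit over the 14 arrays. None of the 35 passed (limma, smallest adjusted p = 0.9996), and 2 of 21212 probe sets (0.00943%) did. The unadjusted p was under 0.05 for 4 genes (11.4%), against 3.24% of all probe sets (1.74% higher and 1.5% lower): Nos3 (0.26, SE 0.10), Emcn (-0.21, SE 0.09), Calcrl (-0.21, SE 0.09) and Erg (-0.17, SE 0.07). This count was 2 without Atxn1l knockout 1, Atxn1l knockout 3, Atxn1 knockout 3 or Atxn1 wild type 3, each left out in turn. That is 5.71% of the 35, against 3.05%, 2.9%, 2.23% and 2.61% of all probe sets with the same arrays. The count was 5 (14.3%) without Atxn1l knockout 4, Atxn1l wild type 3 or Atxn1 wild type 2, against 3.99%, 3.57% and 7.95%. The interval of the difference lay within 0.5 log2 units for 34 of the 35, and Vwf was the exception with an upper bound of 0.58. The difference was below 0 for 26 of the 35 (74.3%), against 46.5% of all probe sets. It was below 0 for 19 without Atxn1l knockout 1 (47.7% of all probe sets) and for 23 without Atxn1 wild type 3 (43.7%). By sign, 17 genes were below 0 in the Atxn1l set and above 0 in the Atxn1 set, 9 were above 0 in both, 5 were below 0 in both, and 4 were above 0 in the Atxn1l set and below 0 in the Atxn1 set. Without both arrays, 11 rather than 17 were below 0 in the Atxn1l set and above 0 in the Atxn1 set. These joint counts by sign were not made over all probe sets, so they have no share to be read against.

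**Figure D1:**
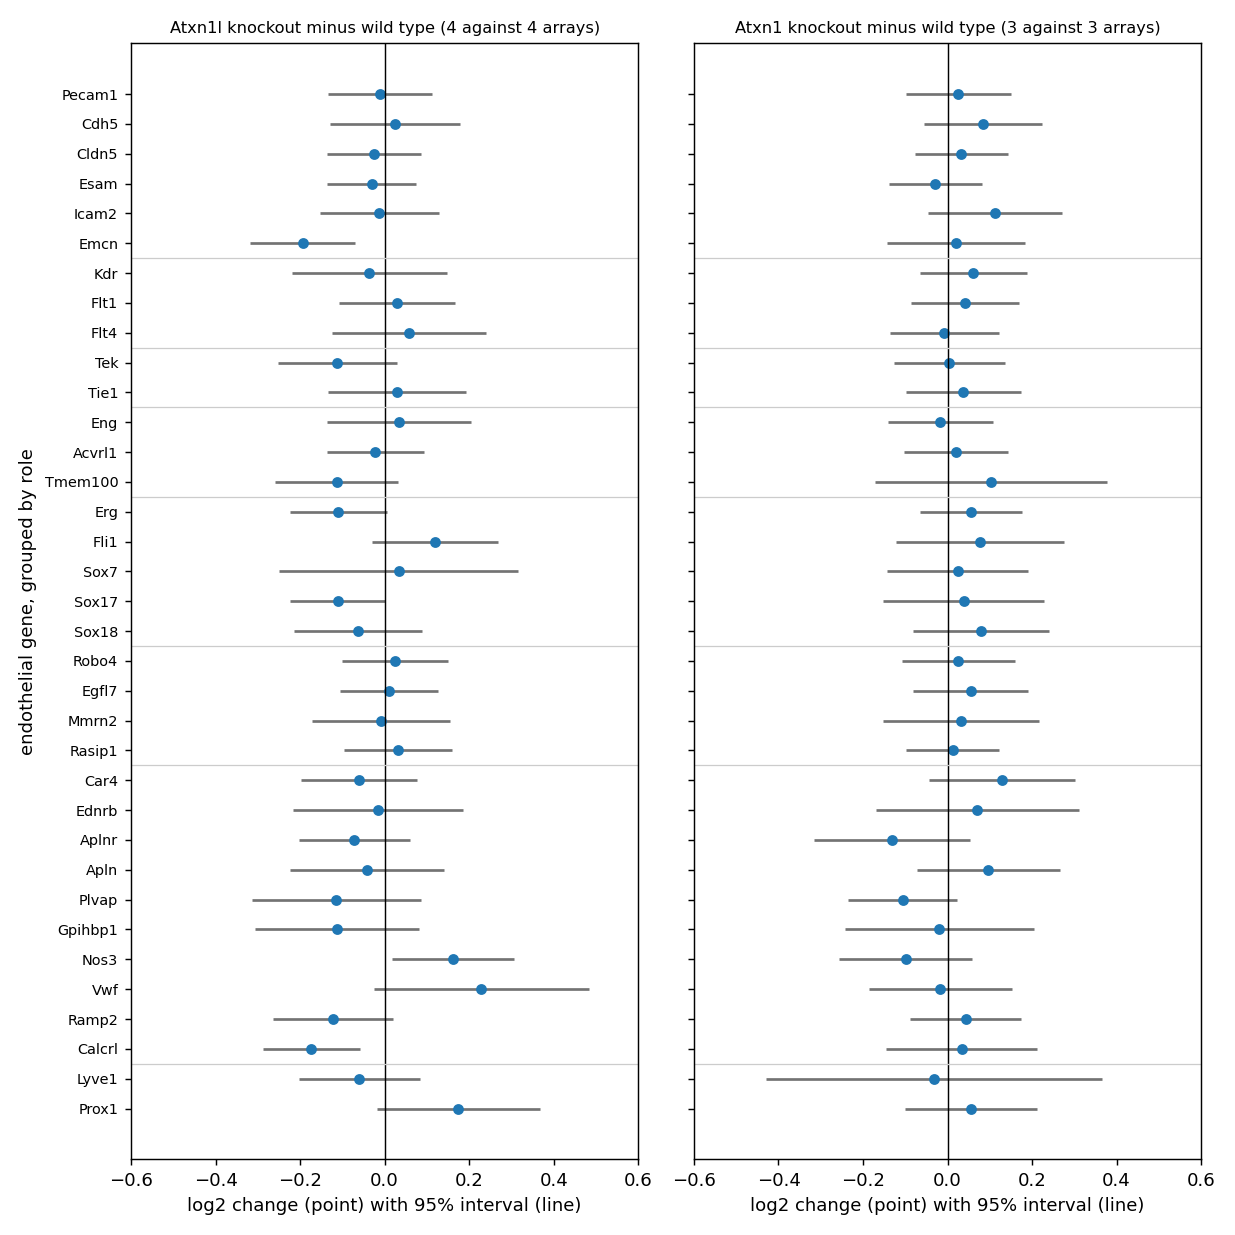
Log2 change of each of the 35 endothelial genes (points, knockout mean minus wild-type mean) with its 95% interval (lines) in the Atxn1l knockouts (4 against 4 arrays) and the Atxn1 knockouts (3 against 3), grouped by role. Points run from -0.19 (Emcn) to 0.23 (Vwf) on one side and from -0.13 (Aplnr) to 0.13 (Car4) on the other, and no gene passed the adjusted threshold.

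Single arrays differed in their average over the endothelial genes. Averaged over the 35, Atxn1l knockouts 1 to 4 stood -0.0908, 0.0331, -0.00463 and -0.0134 from the mean of their wild types, and the wild types themselves at 0.0689, -0.0503, -0.0487 and 0.0302. The groups thus overlapped, at 11.11 ± 0.05 for knockouts and 11.13 ± 0.06 for wild types (mean and SD of 4 arrays). Knockout 1 was the lowest of the 8 arrays for 15 of the 35 genes and wild type 1 was the highest for 15. Without knockout 1, 17 of the 35 genes were below 0 rather than 22 and their median was 0.00423 rather than -0.0223. In the Atxn1 set the averages were 0.00365, 0.0239 and 0.05 on the knockouts and -0.0156, 0.0178 and -0.00221 on the wild types. Wild type 3 was lowest of the 6 arrays for 12 genes and wild type 1 for 9.

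Many of the small changes depended on 1 array, and not only on the arrays with the highest neutrophil genes. Kdr in the Atxn1l set was at -0.10 without wild type 2 and at 0.04 without wild type 1. Sox7 was at -0.10 and 0.11 without the same arrays. Tmem100 in the Atxn1 set was at -0.01 without wild type 1 and at 0.20 without wild type 2. The counts that follow were made only for Atxn1l knockout 1 and Atxn1 wild type 3. Without Atxn1l knockout 1 the sign turned for 5 of the 35 genes, another 17 kept their sign and moved by over 1.5 times, and 13 moved by less. Those that turned were Pecam1 (to 0.02), Icam2 (0.04), Kdr (0.00), Mmrn2 (0.05) and Ednrb (0.07). Without Atxn1 wild type 3 the sign turned for 9, another 14 moved by over 1.5 times and 12 by less. Those that turned were Tek (to -0.01), Tie1 (-0.01), Acvrl1 (-0.01), Sox7 (-0.03), Sox17 (-0.04), Robo4 (-0.01), Gpihbp1 (0.06), Vwf (0.00) and Lyve1 (0.13). Knockout 1 of the Atxn1l set and wild type 3 of the Atxn1 set were the arrays with the highest neutrophil genes. They also stood alone in their groups by Xist. Knockout 1 was the only Atxn1l knockout with a low level (7.04), and wild type 3 the only Atxn1 wild type with a high one (13.04). Leaving either array out thus also shifts the balance of Xist between genotypes. With Xist as a covariate the median change of the 35 was -0.0376 in the Atxn1l set, against -0.0223 without it. In the Atxn1 set it was 0.0338, against 0.0327, and 0 of the 35 passed in either set. Beyond this fit, the part of the neutrophil genes or of Xist in these endothelial values was not tested.

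**Figure D2:**
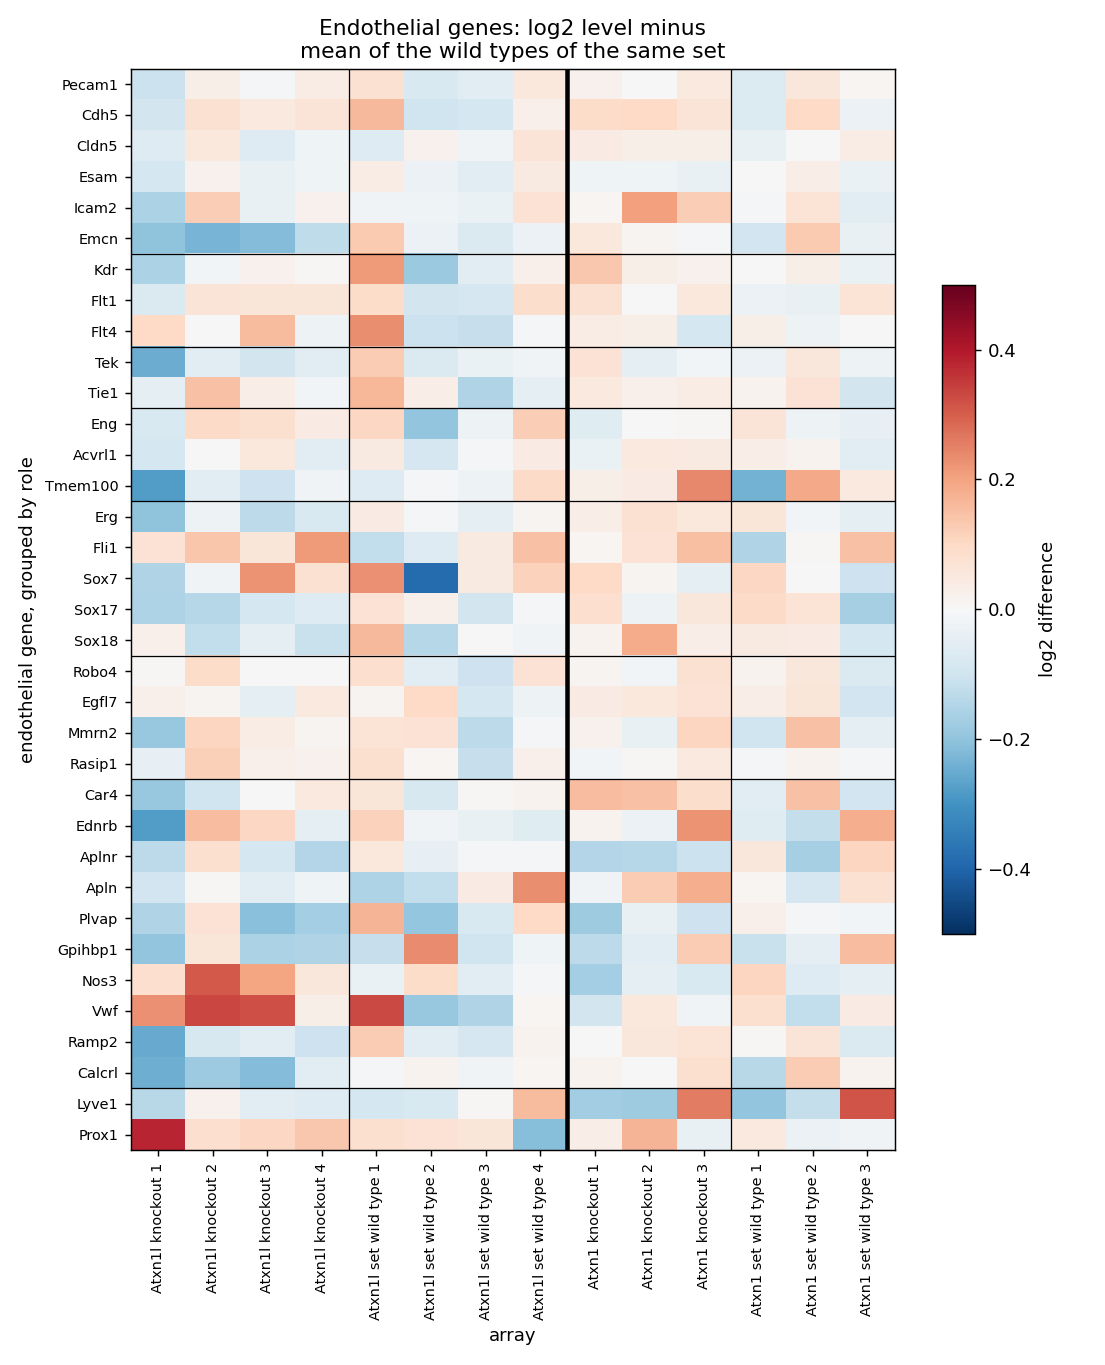
Log2 level of each of the 35 endothelial genes (rows, grouped by role) on each of the 14 arrays (columns) minus the mean of the wild types of the same set, from blue (lower) to red (higher). Averaged over the 35, arrays lie between -0.09 and 0.07 in the Atxn1l set and between -0.02 and 0.05 in the Atxn1 set, and the rows of Emcn and Calcrl are blue on all 4 Atxn1l knockouts.

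Among the 6 genes of junctions and the cell surface, Emcn was the one with the largest difference. Emcn encodes endomucin, a sialomucin of capillary and venous endothelium that keeps white cells from sticking. Its level was 12.02, 11.99, 12.01 and 12.10 on Atxn1l knockouts 1 to 4 and 12.36, 12.20, 12.15 and 12.19 on the wild types. All 4 knockouts were below all 4 wild types, and the log2 change was -0.19 (SE 0.06, 95% interval -0.32 to -0.07, adjusted p = 0.390). Without knockout 1 it was -0.19 (SE 0.06, adjusted p = 0.485). In the Atxn1 set Emcn stood at 12.86, 12.82 and 12.79 against 12.71, 12.93 and 12.77, which overlapped, with a log2 change of 0.02 (SE 0.07).

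Groups that did not overlap were seen for 3 of the 35 genes in the Atxn1l set (8.57%), against 5.32% of all probe sets. Emcn and Calcrl lay on the lower side (2.56% of all probe sets) and Prox1 on the higher (2.76%). The count was 6 without knockout 2 (17.1%, against 8.29% of all probe sets with the same arrays) and 5 without wild type 2 or wild type 3 (14.3%, against 9.01% and 8.27%). The Atxn1 set had Plvap alone (2.86%, against 4.75% of all probe sets, 1.9% on the lower side), and 2 to 11 genes with 1 array left out. It had 11 without wild type 2 (31.4%, against 18.6% of all probe sets with the same arrays), 6 without wild type 3 (17.1%, against 11.1%) and 4 without knockout 1 (11.4%, against 10.4%). It had 2 without knockout 2, knockout 3 or wild type 1 (5.71%, against 11.4%, 9.09% and 20.4%).

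The promoters of the 3 genes that separated in the Atxn1l set are shown here because those genes alone did so among the 35. They are the 250 bases before the transcription start, written 5′ to 3′ on the strand of the gene, from RefSeq on build GRCm38.p6. Emcn lies at chr3:137340828-137341077 on the plus strand, Calcrl at chr2:84425267-84425516 on the minus strand and Prox1 at chr1:190170828-190171077 on the minus strand. Capitals mark CAGGAA, a core that factors of the ETS family such as Erg and Fli1 bind, and AACAAT, a core that Sox factors bind, on either strand.
Emcn: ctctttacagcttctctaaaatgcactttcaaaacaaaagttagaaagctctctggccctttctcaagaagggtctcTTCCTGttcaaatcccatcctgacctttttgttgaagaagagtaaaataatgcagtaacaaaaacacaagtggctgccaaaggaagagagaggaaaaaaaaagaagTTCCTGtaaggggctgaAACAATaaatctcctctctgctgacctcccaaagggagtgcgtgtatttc
Calcrl: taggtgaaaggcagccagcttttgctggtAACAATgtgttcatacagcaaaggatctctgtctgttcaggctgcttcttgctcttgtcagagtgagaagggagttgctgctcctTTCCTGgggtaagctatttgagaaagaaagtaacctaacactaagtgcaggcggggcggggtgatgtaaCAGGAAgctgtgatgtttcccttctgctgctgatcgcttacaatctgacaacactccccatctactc
Prox1: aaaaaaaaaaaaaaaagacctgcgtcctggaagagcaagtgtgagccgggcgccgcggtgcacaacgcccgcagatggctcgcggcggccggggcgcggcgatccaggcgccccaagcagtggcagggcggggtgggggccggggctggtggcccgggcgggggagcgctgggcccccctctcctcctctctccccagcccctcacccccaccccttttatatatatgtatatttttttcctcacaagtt
The Emcn window held CAGGAA at 173 to 168 and at 67 to 62 bases before the start, both on the opposite strand, and AACAAT at 50 to 45. The Calcrl window held CAGGAA at 136 to 131 on the opposite strand and at 67 to 62, and AACAAT at 221 to 216. The Prox1 window held neither motif. No matches overlapped in these windows.

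Of the 35 genes, 17 had a promoter in the RefSeq table, and these were set beside the promoters of all 27025 genes in it, at the same length and on both strands. CAGGAA was found in 8 of the 17 (47.1%) against 25.4% of all promoters, in Apln, Calcrl, Egfl7, Emcn, Rasip1, Robo4, Tek and Tie1. AACAAT was found in 3 (17.6%, Calcrl, Emcn and Tek) against 9.65%, and CCGGAA, another ETS core, in 2 (11.8%, Car4 and Kdr) against 12.2%. TGAATGNA, which holds the TGAATG octamers that Capicua binds, was found in 0 of the 17 against 3.25% of all promoters. These are matches of letters in short windows and no measure of binding.

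The other 5 junction genes had smaller differences in the Atxn1l set. Pecam1 (CD31), the adhesion protein that is the usual stain for endothelium, stood at 12.06, 12.20, 12.17 and 12.21 on the Atxn1l knockouts and 12.25, 12.10, 12.12 and 12.22 on the wild types, a log2 change of -0.01 (SE 0.06, 95% interval -0.13 to 0.11, adjusted p = 0.980). On the Atxn1 arrays it stood at 12.60, 12.57 and 12.62 against 12.51, 12.63 and 12.58, a change of 0.03 (SE 0.05, 95% interval -0.10 to 0.15). Both 95% intervals of this general marker lie within 0.25 log2 units of 0.

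Cdh5, VE-cadherin, the adhesion protein of endothelial junctions, was at 12.84, 13.01, 12.98 and 12.99 against 13.09, 12.83, 12.84 and 12.95 in the Atxn1l set (0.02, SE 0.07, adjusted p = 0.964) and at 13.46, 13.46 and 13.43 against 13.29, 13.46 and 13.33 in the Atxn1 set (0.08, SE 0.06). Knockout 1 was its lowest Atxn1l knockout and wild type 1 its highest value. Esam, another junction protein, gave 11.58, 11.69, 11.63 and 11.65 against 11.71, 11.64, 11.61 and 11.71 (-0.03, SE 0.05, adjusted p = 0.914) and 12.13, 12.13 and 12.12 against 12.15, 12.19 and 12.12 (-0.03, SE 0.05), the narrowest spread of the 35 in both sets, with SDs of 0.0471 and 0.0242. Icam2, a ligand of white cell integrins, gave 9.70, 9.98, 9.82 and 9.88 against 9.84, 9.84, 9.83 and 9.93 (-0.01, SE 0.06, adjusted p = 0.980) and 10.94, 11.14 and 11.05 against 10.92, 11.00 and 10.87 (0.11, SE 0.07). All of these overlapped between genotypes, and Cldn5, claudin-5 of the tight junction, had log2 changes of -0.03 and 0.03. In RefSeq order on GRCm38.p6, 2 other protein-coding genes lie between Icam2 and Pecam1 and 2 between Robo4 and Esam. Cdh5 and Plvap lie on the chromosome of Atxn1l, with 110 and 357 protein-coding genes between each of them and it.

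None of the 3 receptors of vascular endothelial growth factors passed the test. Kdr (VEGFR2), the receptor that drives vessel growth, stood at 11.53, 11.67, 11.71 and 11.69 on the Atxn1l knockouts and 11.90, 11.50, 11.63 and 11.71 on the wild types, a log2 change of -0.04 (SE 0.08, adjusted p = 0.949). Its values on the Atxn1 arrays were 12.39, 12.29 and 12.28 against 12.26, 12.29 and 12.23 (0.06, SE 0.05). Wild type 1 was above the other 7 arrays of the Atxn1l set. Flt4 (VEGFR3), the receptor of lymphatic growth factors, stood at 9.48, 9.37, 9.54 and 9.35 against 9.61, 9.27, 9.26 and 9.37 (0.06, SE 0.08, adjusted p = 0.907) and at 9.9973, 9.99 and 9.87 against 9.99, 9.94 and 9.96 (-0.01, SE 0.05). Flt1 (VEGFR1), which captures the ligand, had log2 changes of 0.03 and 0.04, so no change in this family exceeded 0.06 to 2 decimals in either knockout with all arrays. Without Atxn1 wild type 3 the second change of Flt1 was 0.07.

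Tek (Tie2), the receptor of the angiopoietins, was at 11.65, 11.85, 11.81 and 11.85 on the Atxn1l knockouts and 12.03, 11.83, 11.87 and 11.88 on the wild types, a log2 change of -0.11 (SE 0.06, 95% interval -0.25 to 0.03, adjusted p = 0.682). Knockout 1 was the lowest array and wild type 1 the highest, and the other 6 lay between 11.81 and 11.88. Without knockout 1 the change was -0.07. In the Atxn1 set Tek was at 12.42, 12.30 and 12.33 against 12.31, 12.40 and 12.32 (0.00, SE 0.06). Its partner Tie1 had log2 changes of 0.03 and 0.04.

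The ligand of Tek had a larger difference than any of the 35. Angpt1, which pericytes and other mesenchymal cells make to stabilise vessels, stood at 9.49, 9.64, 9.73 and 9.79 on the Atxn1l knockouts and at 10.004, 10.06, 10.01 and 10.17 on the wild types. All 4 knockouts were below all 4 wild types, with a log2 change of -0.39 (SE 0.07, 95% interval -0.55 to -0.24), but the adjusted p was 0.201 and the threshold was not passed. Without knockout 1 it was -0.34 (SE 0.06, adjusted p = 0.213). The change was -0.01 (SE 0.13) in the Atxn1 set, and the difference between the effects was -0.39 (SE 0.15, adjusted p = 0.9996). Angpt1 belongs to a list of 12 ligands and co-receptors of the VEGF and angiopoietin families, of which 0 passed in either knockout, 4 were above 0 in the Atxn1l set and 7 in the Atxn1 set. After Angpt1 the smallest p-values of that list in the Atxn1l set were those of Angptl1 (-0.10) and Figf, the growth factor VEGF-D (0.10). On the Atxn1 arrays they were those of the co-receptors Nrp1 (0.09) and Nrp2 (0.09) and of Figf (0.08). The 11 pericyte and smooth muscle genes, the cells around the vessel, had 7 above 0 in the Atxn1l set and 11 in the Atxn1 set, with medians of 0.0052 and 0.036. Without Atxn1l knockout 1 and Atxn1 wild type 3 these were 9 and 5, with medians of 0.061 and -0.0023.

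Endoglin and its partners carry the signal of circulating bone morphogenetic proteins. Eng, the co-receptor, stood at 12.11, 12.28, 12.26 and 12.22 on the Atxn1l knockouts and 12.29, 11.98, 12.16 and 12.30 on the wild types (0.03, SE 0.08, adjusted p = 0.947) and at 12.87, 12.94 and 12.94 against 13.00, 12.91 and 12.89 in the Atxn1 set (-0.02, SE 0.05). Tmem100, a membrane protein that the pathway induces, stood at 11.87, 12.09, 12.05 and 12.13 against 12.09, 12.14, 12.13 and 12.25 (-0.11, SE 0.07, adjusted p = 0.685) and at 12.54, 12.55 and 12.75 against 12.28, 12.70 and 12.56 (0.10, SE 0.12). The signs of Tmem100 were opposite, but the difference of -0.22 (SE 0.13) did not pass, and without knockout 1 the Atxn1l change was -0.06. Acvrl1 (ALK1), the receptor itself, had log2 changes of -0.02 and 0.02.

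A list of 17 other genes of this pathway had 0 past the threshold in either knockout, with 5 above 0 in the Atxn1l set and 12 in the Atxn1 set. The smallest p in the Atxn1l set was that of Bmper, a secreted regulator of bone morphogenetic proteins, at 9.46, 9.78, 9.56 and 9.68 against 10.02, 9.94, 9.87 and 10.02, a log2 change of -0.34 (SE 0.07, adjusted p = 0.251), with all knockouts below all wild types. It was -0.29 (adjusted p = 0.318) without knockout 1, and 0.06 in the Atxn1 set. Next were Tgfb1 (0.23, adjusted p = 0.310), the ligand TGF beta 1, and its receptor Tgfbr2 (0.14, adjusted p = 0.460), both with all knockouts above all wild types. For the Atxn1 knockouts the smallest p-values were those of Bmp10 (-0.08), Tgfb1 (0.05) and Id3 (-0.08), with overlap in each.

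Of the 5 transcription factors that set endothelial identity, 3 were below 0 in the Atxn1l set and all 5 were above 0 in the Atxn1 set (3 without wild type 3), none past the threshold. Erg, an ETS factor that keeps endothelial genes on, stood at 10.46, 10.64, 10.53 and 10.59 on the Atxn1l knockouts and 10.71, 10.65, 10.62 and 10.68 on the wild types, a log2 change of -0.11 (SE 0.05, 95% interval -0.22 to 0.00, adjusted p = 0.606). Knockout 2 lay among the wild types and the other 3 knockouts below them. Its values on the Atxn1 arrays were 11.12, 11.16 and 11.14 against 11.14, 11.07 and 11.03 (0.06, SE 0.05). Without Atxn1l knockout 1 the change of Erg was -0.08 (SE 0.05).

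Sox17, a factor of arterial endothelium, gave 10.26, 10.27, 10.33 and 10.35 against 10.49, 10.44, 10.32 and 10.41 in the Atxn1l set (-0.11, SE 0.05, adjusted p = 0.593) and 10.99, 10.88 and 10.96 against 11.00, 10.97 and 10.74 in the Atxn1 set (0.04, SE 0.08, and -0.04 without wild type 3). Fli1, an ETS factor also made by white blood cells and megakaryocytes, gave 11.07, 11.13, 11.06 and 11.21 against 10.87, 10.93, 11.04 and 11.14 (0.12, SE 0.07, adjusted p = 0.675) and 11.19, 11.25 and 11.33 against 11.03, 11.19 and 11.33 (0.08, SE 0.08, and 0.15 without wild type 3). Sox18, a factor of lymphatic and blood vessels, gave 10.22, 10.07, 10.15 and 10.09 against 10.36, 10.05, 10.19 and 10.18 (-0.06, SE 0.07, adjusted p = 0.863) and 11.13, 11.30 and 11.15 against 11.16, 11.16 and 11.03 (0.08, SE 0.07, and 0.04 without wild type 3). All 3 overlapped between genotypes in both sets. The part of white cell and platelet genes in the values of Fli1 was not tested. Sox7, the third factor of the SoxF family, had log2 changes of 0.03 and 0.02 and an SD of 0.22 within groups of the Atxn1l set, the widest of the 35 there.

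The 4 genes of vessel guidance and matrix had changes of at most 0.05 to 2 decimals with all arrays. Rasip1, which opens the lumen of growing vessels, stood at 10.70, 10.86, 10.77 and 10.76 on the Atxn1l knockouts and 10.82, 10.75, 10.63 and 10.77 on the wild types (0.03, SE 0.06, adjusted p = 0.933) and at 11.16, 11.18 and 11.22 against 11.16, 11.19 and 11.17 in the Atxn1 set (0.01, SE 0.05). Robo4, a guidance receptor, had log2 changes of 0.02 and 0.02. Egfl7, a secreted endothelial protein, had 0.01 and 0.05, and Mmrn2, a matrix protein of vessels, had -0.01 and 0.03.

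The capillary and vasoactive genes held the widest range. Calcrl, the receptor that pairs with Ramp2 to bind adrenomedullin, stood at 12.92, 12.98, 12.95 and 13.11 on the Atxn1l knockouts and 13.15, 13.18, 13.14 and 13.17 on the wild types. All 4 knockouts were below all 4 wild types, with a log2 change of -0.17 (SE 0.05, 95% interval -0.29 to -0.06, adjusted p = 0.408), and it was -0.15 (SE 0.05, adjusted p = 0.539) without knockout 1. Among the Atxn1 arrays Calcrl stood at 13.41, 13.39 and 13.47 against 13.25, 13.51 and 13.40 (0.03, SE 0.08), with overlap. Ramp2 itself stood at 11.14, 11.31, 11.33 and 11.29 against 11.51, 11.33, 11.30 and 11.40 (-0.12, SE 0.06, adjusted p = 0.644) and at 11.99, 12.05 and 12.06 against 12.00, 12.05 and 11.92 (0.04, SE 0.06). The first of these changes was -0.08 without Atxn1l knockout 1. The ligand Adm was at 0.27 (SE 0.10, adjusted p = 0.527) in the Atxn1l set and at -0.18 in the Atxn1 set (-0.12 without wild type 3), and Ramp3, another partner of the receptor, at 0.19 (adjusted p = 0.512) and -0.01, all with overlapping groups.

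Nos3, the nitric oxide synthase of endothelium, was the gene with the smallest p on the higher side of the Atxn1l set. Its level was 9.30, 9.52, 9.41 and 9.27 on the knockouts and 9.18, 9.31, 9.16 and 9.21 on the wild types, a log2 change of 0.16 (SE 0.06, 95% interval 0.02 to 0.31, adjusted p = 0.549). Knockouts 1 and 4 lay below wild type 2, the highest wild type. On the arrays of the Atxn1 set Nos3 stood at 9.98, 10.10 and 10.08 against 10.26, 10.09 and 10.11, a log2 change of -0.10 (SE 0.07), of opposite sign. The difference between the effects was 0.26 (SE 0.10), with an adjusted p of 0.9996.

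Vwf, von Willebrand factor of larger vessels and of platelets, varied widely in the Atxn1l set, at 10.28, 10.39, 10.38 and 10.08 on the knockouts and 10.38, 9.87, 9.90 and 10.06 on the wild types (0.23, SE 0.11, 95% interval -0.03 to 0.48, adjusted p = 0.628). Wild type 1 was level with the highest knockouts. Its Atxn1 values were 10.85, 11.00 and 10.93 against 11.02, 10.82 and 10.99 (-0.02, SE 0.07). Platelets also hold Vwf transcript: 6 genes of platelets and megakaryocytes had mean levels of 0.01 to 0.75 above the wild-type mean on the Atxn1l knockouts, against -0.08 to 0.09 on the wild types, and their part in the value of Vwf was not tested. Without knockout 1, the array with 0.75, Vwf was at 0.23 (SE 0.13).

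The remaining markers of aerocytes and general capillary cells overlapped between genotypes in the Atxn1l set. Car4, the carbonic anhydrase of aerocytes, was at 11.71, 11.80, 11.90 and 11.95 against 11.96, 11.82, 11.90 and 11.92 (-0.06, SE 0.06, adjusted p = 0.853) and in the Atxn1 set at 12.31, 12.30 and 12.24 against 12.11, 12.30 and 12.06 (0.13, SE 0.07, 95% interval -0.04 to 0.30). Wild type 2 of the Atxn1 set lay among the knockouts. The changes of Car4 were -0.02 without Atxn1l knockout 1 and 0.08 without Atxn1 wild type 3. Apln, the ligand apelin made by aerocytes, was at 10.70, 10.80, 10.74 and 10.77 against 10.64, 10.67, 10.84 and 11.03 (-0.04, SE 0.08, adjusted p = 0.939) and at 11.24, 11.38 and 11.44 against 11.27, 11.18 and 11.34 (0.10, SE 0.07). Its receptor Aplnr, on general capillary cells, was at 11.61, 11.82, 11.65 and 11.59 against 11.79, 11.70, 11.73 and 11.73 (-0.07, SE 0.06, adjusted p = 0.801) and at 11.89, 11.90 and 11.93 against 12.10, 11.88 and 12.15 (-0.13, SE 0.08, 95% interval -0.32 to 0.05). The second Atxn1 wild type lay below its knockouts and the other 2 wild types above them, and without wild type 3 the change was -0.08.

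Plvap, the diaphragm protein of fenestrae and caveolae, was the gene that separated in the Atxn1 set. It stood at 11.38, 11.52 and 11.45 on the Atxn1 knockouts and 11.58, 11.54 and 11.54 on their wild types, a log2 change of -0.11 (SE 0.05, 95% interval -0.23 to 0.02, adjusted p = 0.9999), and -0.11 (SE 0.07) without wild type 3. In the Atxn1l set it stood at 10.67, 10.90, 10.61 and 10.65 against 10.99, 10.63, 10.75 and 10.92, a change of -0.11 (SE 0.09, adjusted p = 0.789), with overlap. Gpihbp1, which carries lipoprotein lipase to capillaries, had log2 changes of -0.11 and -0.02, and Ednrb, the endothelin B receptor of aerocytes, had -0.02 and 0.07 (0.07 without Atxn1l knockout 1 and 0.16 without Atxn1 wild type 3).

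The 2 genes of lymphatic endothelium did not pass. Lyve1, the hyaluronan receptor of lymphatic vessels and of some macrophages, stood at 12.51, 12.67, 12.59 and 12.59 on the Atxn1l knockouts and 12.56, 12.57, 12.66 and 12.81 on the wild types (-0.06, SE 0.06, adjusted p = 0.866). Over the Atxn1 set it stood at 12.56, 12.55 and 12.99 against 12.54, 12.62 and 13.05 (-0.03, SE 0.17), where knockout 3 and wild type 3 were both above the other 4 arrays and the SD of 0.263 was the widest of the 35 and the change without wild type 3 was 0.13. Prox1, the master factor of lymphatic identity, stood at 8.38, 8.08, 8.10 and 8.13 on the Atxn1l knockouts and 8.08, 8.07, 8.05 and 7.78 on the wild types. The groups did not overlap, but the lowest knockout and the highest wild type were equal to 2 decimals, and the log2 change was 0.17 (SE 0.09, 95% interval -0.02 to 0.37, adjusted p = 0.628). Knockout 1 was the highest array and wild type 4 the lowest, and without knockout 1 the change was 0.11 (SE 0.08). Its Atxn1 values were 8.31, 8.44 and 8.24 against 8.32, 8.24 and 8.25 (0.06, SE 0.07).

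**Figure D3:**
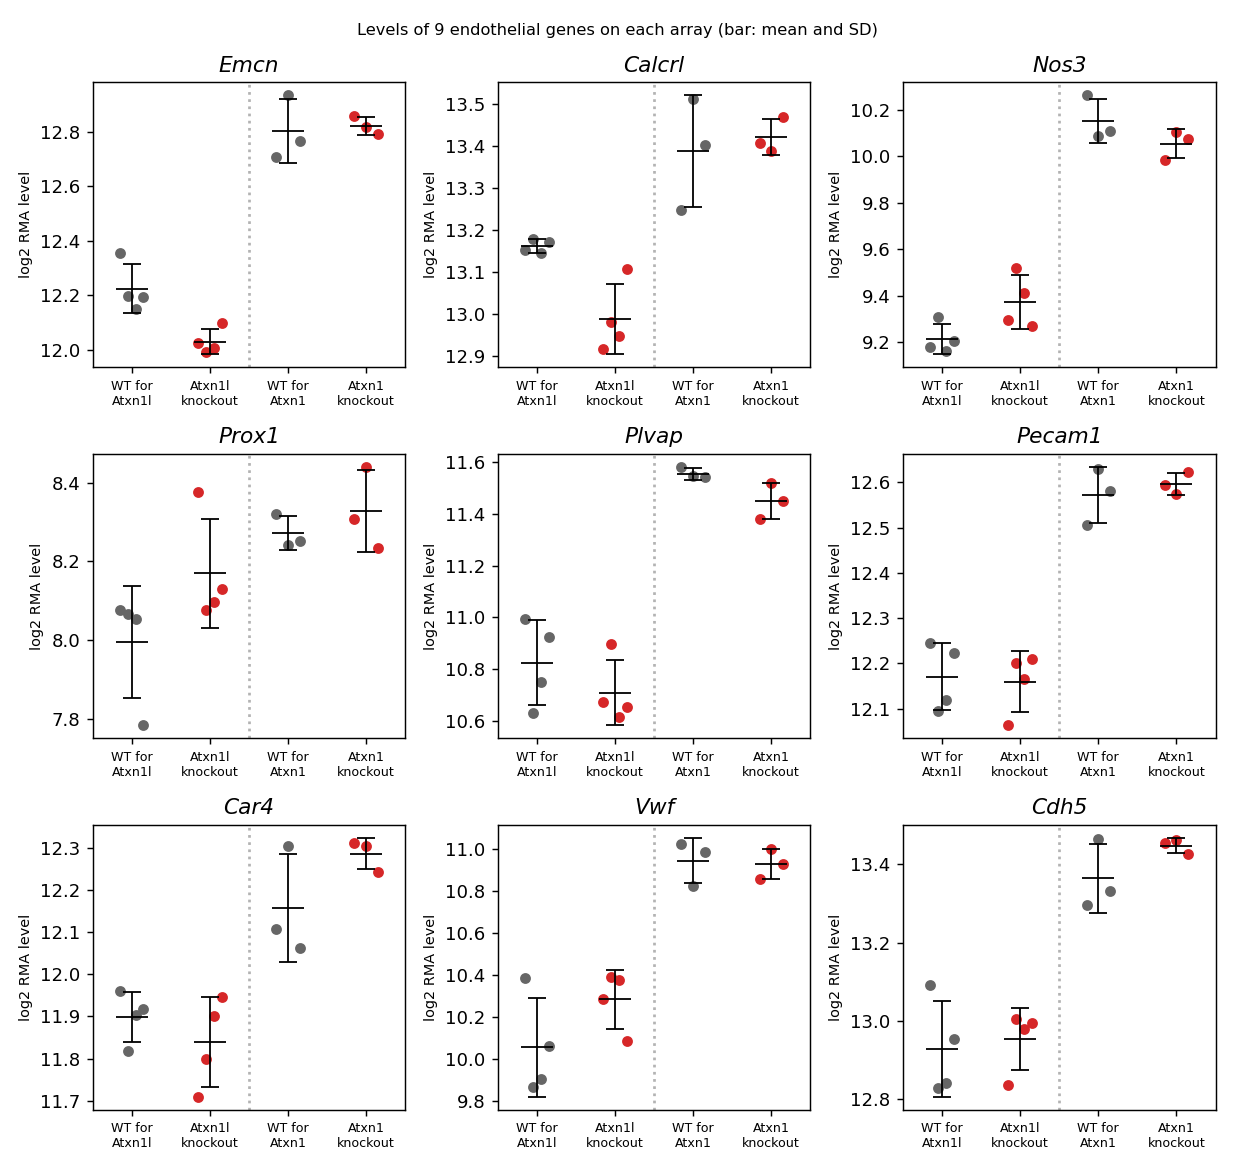
Log2 levels of 9 endothelial genes on every array (points) with the mean and SD of each group (bars), wild types in grey and knockouts in red. All Atxn1l knockouts lie below all wild types for Emcn and Calcrl and above them for Prox1, and the Atxn1 knockouts lie below their wild types for Plvap.

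Genes of Notch signalling, which sets arteries apart from veins, and of the response to blood flow were read from lists of other genes. Of 12 Notch pathway genes, 0 passed in either knockout, 8 were above 0 in the Atxn1l set and 9 in the Atxn1 set. Heyl, a target of Notch made also in mural cells, stood at 10.10, 10.18, 10.14 and 10.03 on the Atxn1l knockouts and 9.95, 9.81, 9.85 and 9.94 on the wild types (0.23, SE 0.05, adjusted p = 0.318), and Hey1, another target, at 10.36, 10.48, 10.44 and 10.47 against 11.08, 10.63, 10.52 and 10.69 (-0.29, SE 0.10, adjusted p = 0.498). These targets thus lay on opposite sides, each without overlap. The ligand Dll4 was at -0.13 in the Atxn1l set. Among the Atxn1 arrays the smallest p-values of the list were those of Notch4 (0.12, and 0.05 without wild type 3), Dll4 (0.09) and Jag1 (0.07).

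Of 8 genes of caveolae, flow and the control of nitric oxide synthase, 0 passed, 3 were above 0 in the Atxn1l set and 6 in the Atxn1 set. Cav2, a coat protein of caveolae made also by alveolar type 1 cells, stood at 11.31, 11.25, 11.28 and 11.31 on the Atxn1l knockouts and 11.46, 11.62, 11.56 and 11.52 on the wild types. All knockouts were below all wild types, with a log2 change of -0.25 (SE 0.05, adjusted p = 0.217), and -0.26 (adjusted p = 0.261) without knockout 1. On the Atxn1 arrays it was 0.06, and the difference between the effects was -0.31 (SE 0.07, adjusted p = 0.866). Cav1, its partner and the protein that holds nitric oxide synthase inactive, was at -0.09 (adjusted p = 0.646), also without overlap, and at 0.02, and the flow factor Klf4 was at 0.12 and 0.12 (0.21 without Atxn1 wild type 3). Ace, the angiotensin converting enzyme of lung endothelium, had the smallest p of the list in the Atxn1 set, at 0.09. Of 11 measured ligands and partners of apelin, adrenomedullin and endothelin, 0 passed, 6 were above 0 in the Atxn1l set and 4 in the Atxn1 set. Without Atxn1l knockout 1 the first count was 10. Besides Adm and Ramp3 the smallest p-values were those of the endothelin receptor Ednra in the Atxn1l set (0.11) and of Ramp1 (0.06) and Edn2 (-0.08) in the Atxn1 set.

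**Figure D4:**
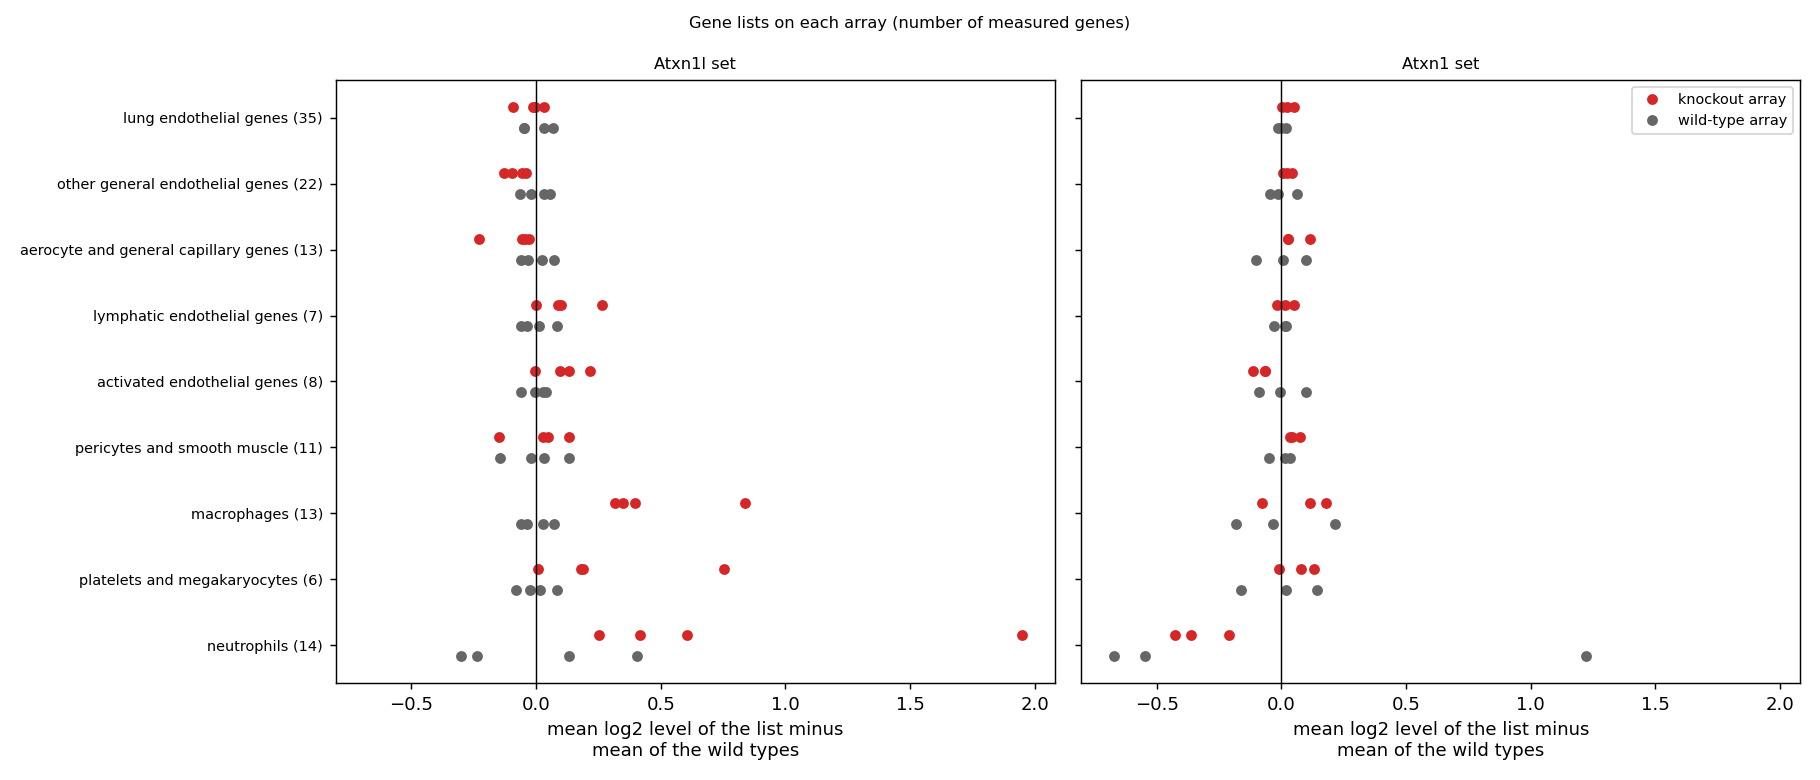
Mean log2 level of gene lists on each array minus the mean of the wild types, for the 35 endothelial genes and 8 other lists (number of measured genes in brackets), knockouts in red and wild types in grey. The endothelial genes stay between -0.09 and 0.07 on every array, and the neutrophil genes reach 1.95 on Atxn1l knockout 1 and 1.22 on Atxn1 wild type 3.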

How the data were processed

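Lung RNA was hybridised to Affymetrix Mouse Gene ST 1.0 arrays. The deposited values are log2 expression levels summarised per probe set by the authors with the RMA method, separately for the 8 arrays of the Atxn1l set and the 6 of the Atxn1 set, per the labels and the series' design text. The submitters' processing notes name RMA and limma without versions, and which release of the probe set definitions was used is not stated in the labels. Each probe set is named by an Entrez number: 18786 have 1 gene symbol in the platform annotation, 6 have several and 2420 have none.

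The values were used as deposited. Knockouts were tested against the wild types of their own set with limma 3.58.1 in R 4.3.3 (lmFit, then eBayes with default settings, two-sided, no covariates), and the effects were compared in a fit of 4 group means over all 14 arrays, in which an offset between the sets cancels. P-values were adjusted by Benjamini-Hochberg over all 21212 probe sets and called at 0.05. These steps were tested on simulated data. A gene's groups do not overlap when every knockout lies on 1 side of every wild type. Lists of other genes (25 lists, 255 entries, of which 249 matched) are described by counts and medians, with no test of a list.

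The members and lists were chosen with earlier results of these data known. Each member was named with its change in both knockouts. Every array and full statistics were given for the 6 of smallest p in each comparison and direction and for Pecam1, Cdh5, Kdr, Tek, Eng, Erg, Sox17, Car4, Aplnr, Plvap, Vwf, Lyve1 and Prox1. Of the other endothelial lists the 3 of smallest p in each comparison were named, and arrays were printed for those whose genes stood out once their values were seen. Of the lists of other cell types only counts, medians, levels and members past the threshold were given.

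The alternatives were the replicate number as a block, a trended robust prior, array weights, the dimmest 25% of probe sets left out, median centring, cyclic loess, joint quantile normalization, 1 probe set per gene, Xist as a covariate, and each array left out in turn. Counts at an unadjusted p, counts of groups that do not overlap and the refits without Atxn1l knockout 1 and Atxn1 wild type 3 were added after the data were seen. Promoters came from RefSeq, build GRCm38.p6.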

Additional observations from a re-analysis of the deposited data

Results flagged for a closer look

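Among the groups of 4 arrays of the Atxn1l set, a single array stood far from the other 3 for 5 of the 35 genes by Dixon's test at 95%. The 35 genes and their average were each checked among knockouts and among wild types, so these are 5 of 72 groups (6.94%), and chance gives about 1 in 20. Cdh5 was at 12.84 on knockout 1, with the other knockouts at 12.98 to 13.01. Flt1 was at 10.57 on knockout 1 and at 10.7 on each of the other knockouts. Robo4 was at 10.33 on knockout 2, with the other knockouts at 10.24. Icam2 was at 9.928 on wild type 4, with the other wild types at 9.826 to 9.842. Prox1 was at 7.783 on wild type 4, with the other wild types at 8.054 to 8.077. Groups of 3 arrays were not checked in this way.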

How the results depend on the processing

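None of the 35 genes passed an adjusted p of 0.05 in either knockout or in the difference under any alternative, nor did any at 0.1. The lowest adjusted p of any gene under any alternative was 0.253 in the Atxn1l set and 0.138 in the Atxn1 set. With an unadjusted p under 0.05 in place of the adjusted one, the counts were 3 in the Atxn1l set, 0 in the Atxn1 set and 4 in the difference. Over all probe sets the shares were 8.5%, 1.22% and 3.24%. The count of 3 was 5 with the replicate block (10.2% of all probe sets) or the trended robust prior (8.85%). It was 2 to 4 with 1 array left out, where the share of all probe sets was 6.65% to 9.54%. The count of 0 was 13 with array weights (37.1%, against 19.5% of all probe sets), which gave Atxn1 wild type 3 a weight of 6.38 and wild type 1 one of 0.163, and 3 without Atxn1 wild type 2 (4.29% of all probe sets). The count of 4 was 9 with array weights (25.7%, against 11.8% of all probe sets). It was 2 to 5 with 1 array left out, where the share of all probe sets was 1.93% to 7.95%. The median change in the Atxn1l set was -0.0474 to 0.00423 with 1 array left out, above 0 only without knockout 1, and -0.0462 to -0.00409 under the other alternatives. The median in the Atxn1 set was 0.00953 to 0.0487 with 1 array left out, the lowest without wild type 3. The sign was kept under all alternatives by 21 of 35 genes in the Atxn1l set and by 14 in the Atxn1 set. The causes were not tested.

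The replicate numbers are shared between genotypes, but whether they mark pairs of samples cannot be told here, and the main fits did not use them. Deviations of same-numbered arrays correlated at 0.0371 to 0.376 in the Atxn1l set and at -0.417 to 0.421 in the Atxn1 set. In these sets 5 of 8 and 2 of 6 arrays correlated best with their own number. With the replicate block, 0 of the 35 genes passed in either set.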

Other observations

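Genes of endothelial subtypes and states that are not among the 35 were read from further lists, and 0 of their members passed an adjusted p of 0.05 in either knockout (limma). Of 22 other general endothelial genes, 3 were above 0 in the Atxn1l set and 17 in the Atxn1 set, with medians of -0.08 and 0.03. Without Atxn1l knockout 1 and Atxn1 wild type 3 the counts were 5 and 15 and the medians -0.06 and 0.02. The smallest p-values in the Atxn1l set were those of the endothelial and blood factor Lmo2 (-0.17, adjusted p = 0.394, all knockouts below all wild types), the lectin Clec14a (-0.22) and the factor Hhex (-0.15). In the Atxn1 set they were those of Cyyr1 (0.07), Arhgef15 (0.08) and Lmo2 (0.09).

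Of 13 further aerocyte and general capillary genes, 2 were above 0 in the Atxn1l set and 13 in the Atxn1 set, with medians of -0.06 and 0.05. These counts were 4 without Atxn1l knockout 1 and 9 without Atxn1 wild type 3, the arrays with the highest neutrophil genes and, for 8 and 11 of the 13, the lowest array of their set. The medians were then -0.03 and 0.0044. Hpgd, which breaks down prostaglandins, was at 12.63, 12.51, 12.59 and 12.76 on the Atxn1l knockouts and 12.81, 12.82, 12.87 and 12.88 on the wild types (-0.22, SE 0.06, adjusted p = 0.350). The fatty acid carrier Cd36 (-0.19, adjusted p = 0.471) and Fibin (-0.23, adjusted p = 0.483) were lower on all knockouts than on all wild types as well. These are the 3 of smallest p among the 13. Of the 13, 3 separated on the lower side (23.1%) and 0 on the higher, against 2.56% and 2.76% of all probe sets. In the Atxn1 set the smallest p-values were those of Tbx2 (0.08, no overlap), Fibin (0.12, and -0.04 without wild type 3) and Nckap5 (0.07).

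Of 9 arterial genes, 4 were above 0 in the Atxn1l set and 8 in the Atxn1 set. Beside Hey1 and Dll4, the smallest p-values were those of the ligand Efnb2 (-0.10, and -0.06 without knockout 1) in the Atxn1l set, and of the connexin Gja5 (0.14) and the chemokine Cxcl12 (0.16) in the Atxn1 set, which were at 0.08 and 0.04 without wild type 3. Of 5 venous genes, 3 and 1 (2 without Atxn1 wild type 3) were above 0, with Selp, P-selectin, at 0.14 and -0.24 (-0.13 without that array), Car8 at -0.11 and -0.01 and Slc6a2 at 0.10 and -0.03. Of 7 measured lymphatic genes, 6 and 5 were above 0, with medians of 0.15 and 0.02. Without Atxn1l knockout 1 the first median was 0.08, and without Atxn1 wild type 3 the second was 0.05. The smallest p-values were those of Thy1 (0.19 and 0.08), Mmrn1 (0.22) and Reln (0.19) in the Atxn1l set, at 0.09, 0.10 and 0.11 without knockout 1, and of Nts (-0.09) and Itga9 (0.05) in the Atxn1 set. Of 8 genes of activated endothelium, 6 and 3 were above 0, with the adhesion protein Icam1 at 0.14, Lcn2, which neutrophils also make, at 0.49 and -0.30 (0.31 and -0.01 without Atxn1l knockout 1 and Atxn1 wild type 3), and Vcam1 at -0.13 in the Atxn1 set, where all its knockouts were below all wild types. Hey1, Dll4 and Selp each belong to more than 1 of these lists, and so do Ptprb and Cd93, which are in both the general endothelial and the capillary list.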
